A study of Mus musculus with 15 samples.

Results

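The genes described here build, cut and signal through the extracellular matrix, or mark the fibroblasts and other stromal cells that make it. They were taken by name from the 754 genes of a myeloid NanoString panel: every symbol that begins with Col and a digit, Mmp, Adam, Timp, Lam, Lox, Thbs, Fgf, Pdgf, Vegf or Bmp, together with Fn1, Cdh11, Ddr2, Prrx1, Cav1 and Cxcl12, and without Mmp12. This gave 50 genes, and the rule itself uses names and no measured value. One of them, Lamp3, matched by its first letters only: it encodes a lysosomal membrane protein, not a matrix protein.

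The cells were mouse bone marrow-derived macrophages (BMDMs), grown from femoral marrow for 7 days with M-CSF, the growth factor that drives marrow progenitors to macrophages. MPLA cultures (4 samples) were exposed for 4 days to 20 ng/mL of monophosphoryl lipid A, an agonist of Toll-like receptor 4, and served as M1-like standards. IL4 cultures (4 samples) received 20 ng/mL of interleukin-4 for 4 days and served as M2-like standards. IRF5-NP (3 samples, numbered 1, 2 and 4) and eGFP-NP (4 samples) were IL-4-exposed cells co-incubated for 1 h with 1 µg of mRNA nanoparticles (NPs), which were then washed off. By the methods of the study, IRF5 NPs carried mRNA for the transcription factor IRF5, its kinase IKKβ and some eGFP, whereas control NPs carried eGFP mRNA alone. After NP exposure, the cells with most eGFP were sorted and returned to IL-4 medium before RNA isolation, a step that the methods describe for NP-exposed cells only. The methods state the NP amount as mRNA and give another figure, so the exposures above are those of the labels.

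Fibrillar collagens, fibronectin and laminins form the scaffold around cells, lysyl oxidases crosslink it, and secreted metalloproteinases and ADAMTS enzymes cut it under the control of TIMP inhibitors. In most tissues the collagens come from fibroblasts, which are recognised by the receptors Pdgfra, Pdgfrb and Ddr2, the adhesion molecule Cdh11 and the homeobox factor Prrx1. Macrophages contribute proteases such as Adam8 and growth factors such as Pdgfb and Vegfa. Marrow also holds stromal cells, whose best known product is the chemokine Cxcl12.

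RefSeq promoter windows (mouse build GRCm38.p6) were at hand for 39 of the 50 genes. The 250 bases before the start site are shown for 5 genes of differing behaviour in these data: 2 fibrillar collagen genes and the inhibitor gene Timp3, whose counts were at background in the same few libraries or close to it, and the protease genes Mmp13 and Mmp8, both on chromosome 9, which were not. Capitals mark matches, on either strand, to 4 motifs, which do not overlap one another in the windows shown: TGANTCA, which is the AP-1 motif; TATAAA, known as the TATA box; CCAAT, bound by the factor NF-Y; and GGGCGG, known as the GC box.
Col1a2, chr6:4505368-4505617, plus strand: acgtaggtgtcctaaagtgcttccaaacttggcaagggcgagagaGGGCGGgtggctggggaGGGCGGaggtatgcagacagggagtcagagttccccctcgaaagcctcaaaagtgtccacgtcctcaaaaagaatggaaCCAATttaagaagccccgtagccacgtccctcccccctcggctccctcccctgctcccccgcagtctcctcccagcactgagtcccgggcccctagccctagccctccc
Col3a1, chr1:45311288-45311537, plus strand: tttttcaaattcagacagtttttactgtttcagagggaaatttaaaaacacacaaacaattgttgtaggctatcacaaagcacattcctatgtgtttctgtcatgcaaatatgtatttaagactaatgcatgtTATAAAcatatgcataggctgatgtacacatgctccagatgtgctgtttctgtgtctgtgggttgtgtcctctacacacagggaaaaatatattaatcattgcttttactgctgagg
Timp3, chr10:86300162-86300411, plus strand: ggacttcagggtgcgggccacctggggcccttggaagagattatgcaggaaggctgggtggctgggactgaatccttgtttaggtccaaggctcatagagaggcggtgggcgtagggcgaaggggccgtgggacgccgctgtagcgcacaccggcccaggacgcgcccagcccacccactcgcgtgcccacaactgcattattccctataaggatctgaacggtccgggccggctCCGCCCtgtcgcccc
Mmp13, chr9:7272264-7272513, plus strand: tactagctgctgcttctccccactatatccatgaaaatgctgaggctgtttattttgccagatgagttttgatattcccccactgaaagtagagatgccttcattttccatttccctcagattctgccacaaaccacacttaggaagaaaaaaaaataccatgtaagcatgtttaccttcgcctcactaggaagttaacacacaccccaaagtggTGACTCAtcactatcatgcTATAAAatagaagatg
Mmp8, chr9:7558179-7558428, plus strand: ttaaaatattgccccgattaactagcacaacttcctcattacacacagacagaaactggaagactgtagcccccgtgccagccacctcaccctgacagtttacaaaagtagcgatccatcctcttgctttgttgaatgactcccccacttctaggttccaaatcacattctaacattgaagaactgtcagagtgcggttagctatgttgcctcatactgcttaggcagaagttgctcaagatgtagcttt
The AP-1 motif and TATAAA both lay before Mmp13, where they began 35 and 16 bases ahead of the start. Col1a2 held a CCAAT match and 2 GGGCGG matches, Col3a1 TATAAA alone, Timp3 1 GGGCGG match on the minus strand, and Mmp8 no match to these letters. The AP-1 motif was found for 4 of the 39 genes (10.3%, namely Adam19, Mmp10, Mmp13 and Mmp1a) against 6.75% of all 32851 windows in the table. TATAAA was in 23.1% against 12.4%, GGGCGG in 51.3% against 32.7%, and CCAAT in 23.1% against 33.8%. In each pair the first is a share of genes and the second a share of windows, so they are on unlike units. These letter matches are descriptions of the sequence and are not binding sites. The windows of Col4a1 and Col4a2, which lie head to head, shared 78 bases.

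Values below are normalised counts, that is, gene counts as CPM after TMM scaling over 14 libraries. Counts of eGFP-NP 1 and 2 could not be told from sampling noise over genes with 40 or more counts (chi-square per degree of freedom 1.09), although they could over genes with 100 or more (1.15), and were summed and counted as 1 sample, which leaves n = 3 for eGFP-NP. MPLA 1 and 4, MPLA 2 and 3, IRF5-NP 1 and 2, and eGFP-NP 3 and 4 were also nearly identical (1.36 to 2.56) but were kept apart; every other pair within a group gave 41.4 or more. Where such pairs come from was not stated, so the p-values measure the spread between these samples, which may in part be technical. Total gene counts ran from 266169 in IRF5-NP 4 to 1784833 in MPLA 1. A gene was called above background in a library when its count passed the mean of the 8 negative control probes plus 2 SD, which was 19.7 to 34.9 counts. For the summed eGFP-NP 1-2 the thresholds of its samples (29.4 and 30.5) were added. NanoString probes differ in efficiency, so levels are compared across libraries and not between genes, and in bulk RNA fewer cells of a type and less RNA per cell cannot be told apart.

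The 50 genes took very different shares of the counts from one library to the next. They made up 14.8%, 15.7%, 16% and 14.4% of all gene counts in MPLA 1 to 4. In IL4 1 to 4 the shares were 6.85%, 7.31%, 1.32% and 3.31%. IRF5-NP 1, 2 and 4 gave 2.46%, 2.46% and 7.84%, and eGFP-NP 1-2, 3 and 4 gave 2.25%, 9.13% and 9.13%, each within 0.1 percentage points by its 95% Wilson interval, which covers counting error only. Thus the MPLA libraries were alike, whereas each of the 3 groups exposed to IL-4 held libraries with a high and with a low share. The number of genes above background was 38 to 40 of 50 in MPLA against 14 in IL4 3, 12 and 15 in IRF5-NP 1 and 2, and 13 in eGFP-NP 1-2. The remaining libraries had 32 to 39.

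**Figure D1:**
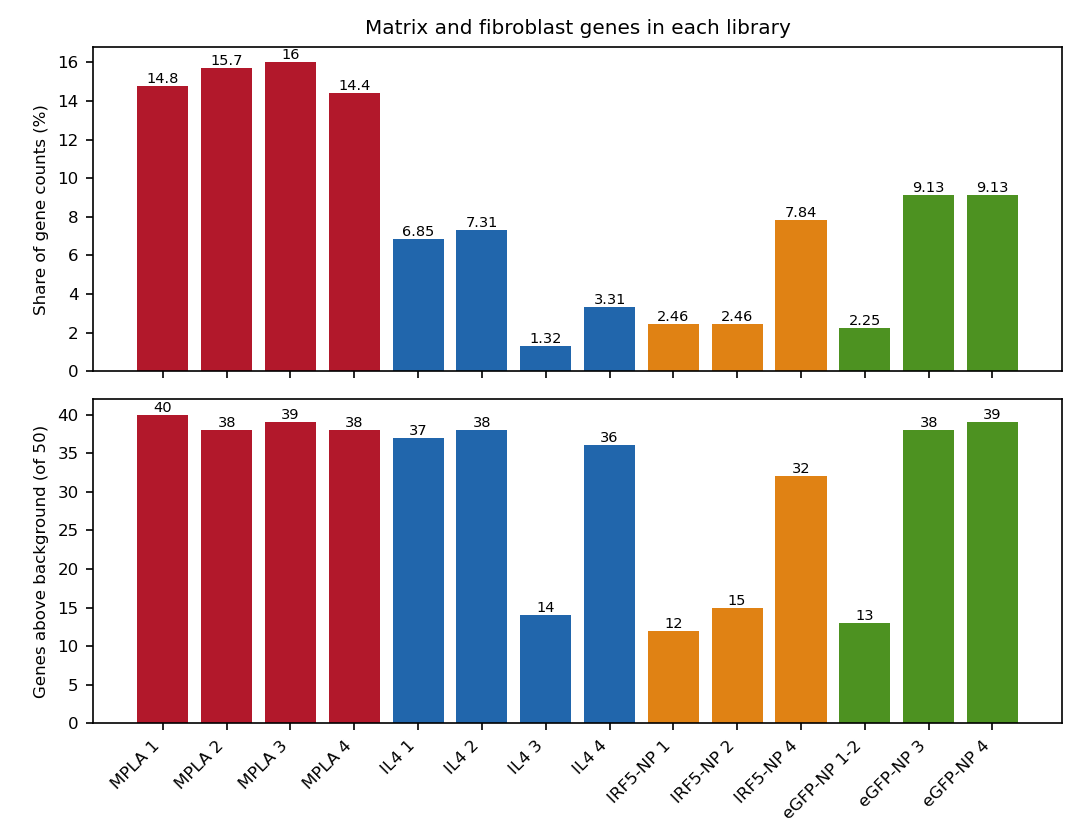
Share of all gene counts taken by the 50 genes (upper panel, percent) and number of the 50 above background (lower panel) in each of 14 libraries, coloured by group. MPLA libraries sit at 14.4% to 16%, whereas IL4 3 (1.32%), IRF5-NP 1 and 2 (2.46% each) and eGFP-NP 1-2 (2.25%) are low in both panels.

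Several collagen genes and the fibroblast receptor genes shared 1 pattern across libraries. Of the 50 genes, 10 were above background in every library (Adam8, Adamts1, Cav1, Fgfr1, Mmp13, Mmp19, Pdgfa, Pdgfb, Vegfa, Vegfc), 5 in none (Adamts17, Bmp8a, Lamp3, Mmp10, Mmp1a) and 35 in some. For 14 genes the 4 libraries IL4 3, IRF5-NP 1, IRF5-NP 2 and eGFP-NP 1-2 were the ones below background and all other 10 were above it. These were Col1a2, Col11a1, Col12a1, Col4a2, Lamb2, Loxl2, Timp3, Adamts2, Cxcl12, Pdgfra, Pdgfrb, Ddr2, Cdh11 and Prrx1. They made up 28% of the 50 genes, and the same pattern was found in 4.24% of all genes of the panel. Among the 45 genes above background in at least 1 library, these 4 libraries were the lowest for 26 (57.8%, against 15.3% of 652 such genes on the panel). Adam8 and Pdgfb, both made by macrophages, had the same 4 libraries as their highest (4.44%, against 11.2%).

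Some macrophage markers moved with this pattern in the opposite direction. Of 12 macrophage markers, 11 were on the panel and all but Aif1 were above background in every MPLA, IL4 and eGFP-NP library. Cd68, Itgam, Tyrobp and Laptm5 (4 of 11) had IL4 3, IRF5-NP 1 and 2 and eGFP-NP 1-2 as their highest libraries, and 7 did not: Cd14 was highest in MPLA (4712 to 6786), and Fcgr1 in IL4 2 (3895). The summed normalised count of the 11 was 81332 in IL4 3, 103196 and 101008 in IRF5-NP 1 and 2, and 98087 in eGFP-NP 1-2. It was 43671 to 48094 in MPLA, 48147 to 50582 in IL4 1, 2 and 4, and 22521 to 26655 in IRF5-NP 4, eGFP-NP 3 and eGFP-NP 4. Of 7 endothelial markers, 3 were on the panel, with a sum of 23.2 to 25.1 in MPLA and 100 to 589 elsewhere; Cdh5 and Tek were below background in every MPLA and NP library. The neutrophil markers on the panel (7 of 8) summed to 378 to 825 in MPLA, to 77.1 to 121 in IL4 and to 127 to 222 in the NP groups, and the lymphocyte list had 1 gene on the panel, Ms4a1, at 9.43 to 32.6. The part of any of these cells in the results below was not tested.

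**Figure D2:**
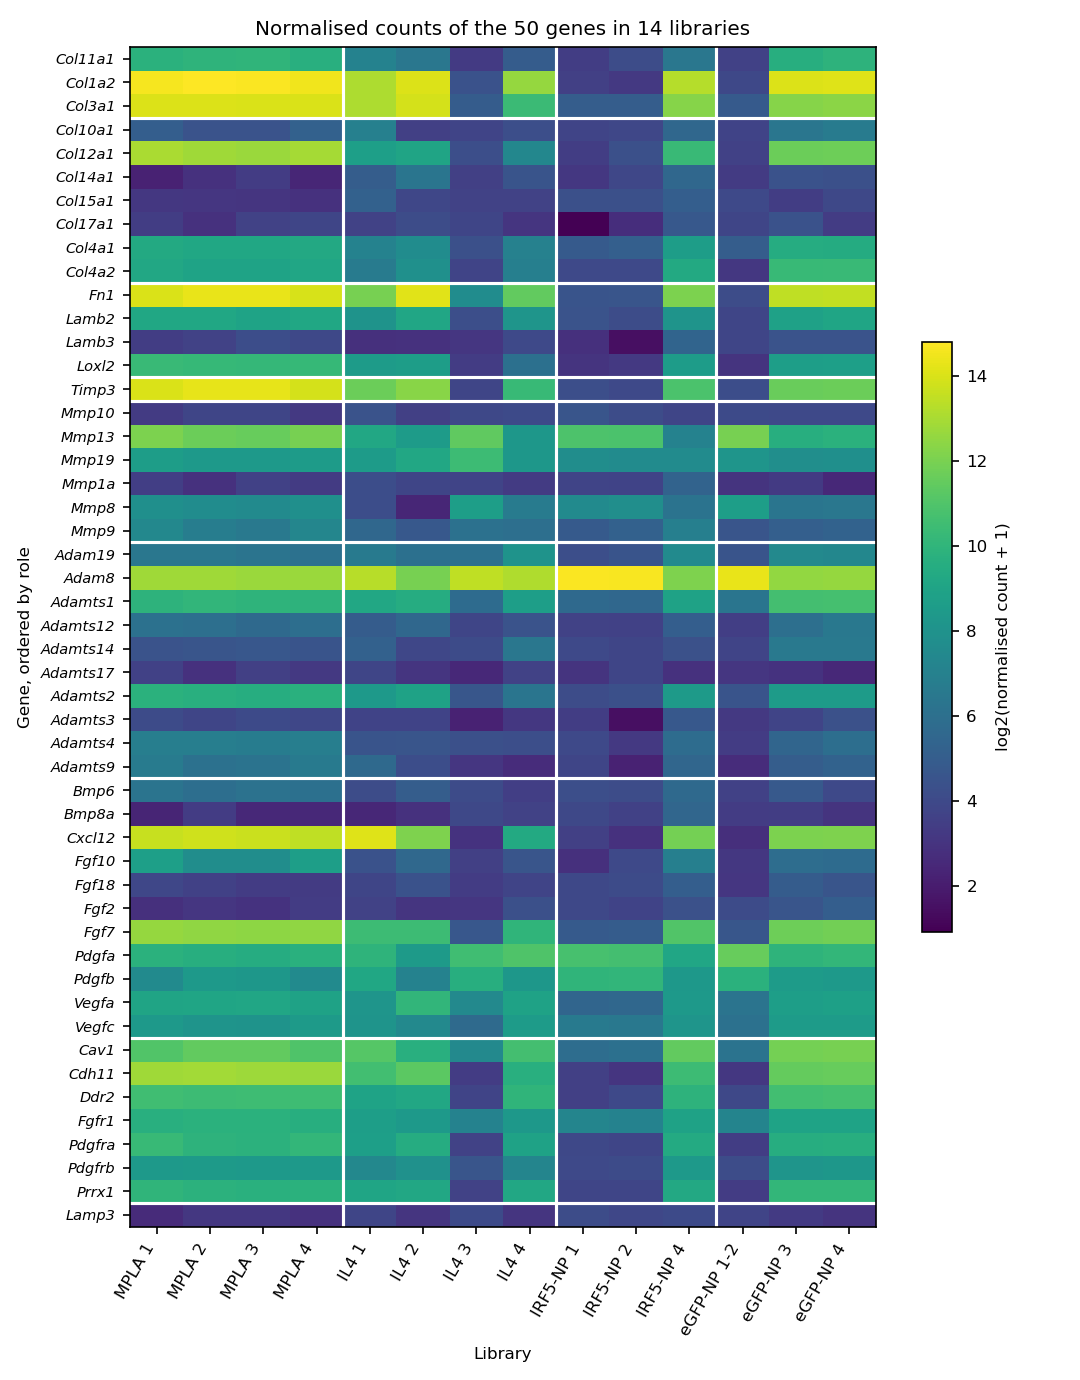
Normalised counts of the 50 genes (log2 of the count + 1, colour) in 14 libraries, with genes ordered by role and white lines between roles and groups. The columns IL4 3, IRF5-NP 1, IRF5-NP 2 and eGFP-NP 1-2 are dark across 14 genes that are above background in the other 10 libraries.

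Fibrillar collagens make the tensile fibres of connective tissue. Col1a2, the α2 chain of type I collagen, gave 24597, 28541, 27108 and 23034 in MPLA 1 to 4 and 8613, 17216, 20 and 6301 in IL4 1 to 4. IRF5-NP 1, 2 and 4 gave 10.6, 8.29 and 9844, and eGFP-NP 1-2, 3 and 4 gave 14.2, 17320 and 18006. All MPLA libraries were therefore above all libraries of the other groups, and within each of those groups the libraries spanned the range from background to 6301 or more. Col3a1, the chain of type III collagen, which forms fine reticular fibres, ran from 16266 to 17438 in MPLA. IL4 libraries had 8781, 15310, 30.5 and 1342, IRF5-NP libraries 31.8, 31.3 and 5019, and eGFP-NP libraries 27.6, 5018 and 5319. The order of libraries resembled that of Col1a2, with IL4 2 close to MPLA. Col11a1, a minor chain that is built into collagen fibrils, was 806 to 1039 in MPLA and 135, 84.9, 8.57 and 30 in IL4. In the NP groups it was 9.71, 16.6 and 84.8 with IRF5 and 11.1, 799 and 943 with eGFP, so that eGFP-NP 4 lay within the MPLA range and eGFP-NP 3 just below it, while IRF5-NP 4 was far lower.

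Of the other collagens, Col12a1 encodes a collagen that sits on the surface of type I fibrils. It gave 8461, 7134, 6599 and 7913 in MPLA against 425, 528, 18.1 and 161 in IL4. In IRF5-NP it was 9.71, 18.4 and 1276, and in eGFP-NP 11.1, 3242 and 3443. No library of another group reached the MPLA range. Col4a1 and Col4a2 encode the partner chains of basement membrane collagen. Col4a1 was 572 to 641 in MPLA and 135, 200, 19 and 129 in IL4, and Col4a2 was 493 to 604 and 104, 235, 12.4 and 120. Both were higher in eGFP-NP 3 and 4 than in any MPLA library, with 734 and 713 for Col4a1 and 1252 and 1280 for Col4a2. IRF5-NP 4 had 404 and 652, whereas IRF5-NP 1 and 2 and eGFP-NP 1-2 stayed at 28.3 to 34.1 and at 8 to 15. Col14a1, which also associates with fibrils, was below background in all MPLA libraries and was 30.9, 77.7, 10.5 and 22 in IL4. Col10a1 was highest in IL4 1 (123), and Col15a1 and Col17a1 were above background in 1 library each.

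Fibronectin (Fn1), the glycoprotein to which cells attach through integrins, gave 16755, 20477, 20432 and 15664 in MPLA. IL4 libraries had 3984, 18570, 200 and 2852, IRF5-NP libraries 22.1, 23 and 4243, and eGFP-NP libraries 16.9, 11362 and 11766. Unlike Col1a2, Fn1 stayed above background in IL4 3, and IL4 2 lay within the MPLA range. Loxl2, a lysyl oxidase-like crosslinking enzyme, was 1156 to 1275 in MPLA and 365, 395, 9.52 and 64.2 in IL4. The laminin chain gene Lamb2 was 493 to 578 in MPLA and 267, 570, 18.1 and 283 in IL4, so the groups overlapped. Lamb3 was above background in 1 MPLA library only.

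Timp3, a matrix-bound inhibitor of metalloproteinases, gave 16785, 20266, 19934 and 15558 in MPLA, and 3302, 5132, 13.3 and 1225 in IL4. IRF5-NP libraries had 17.7, 14.7 and 1880 and eGFP-NP libraries 17.3, 3128 and 3298. The lowest MPLA library was thus well above the highest library of any other group.

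**Figure D3:**
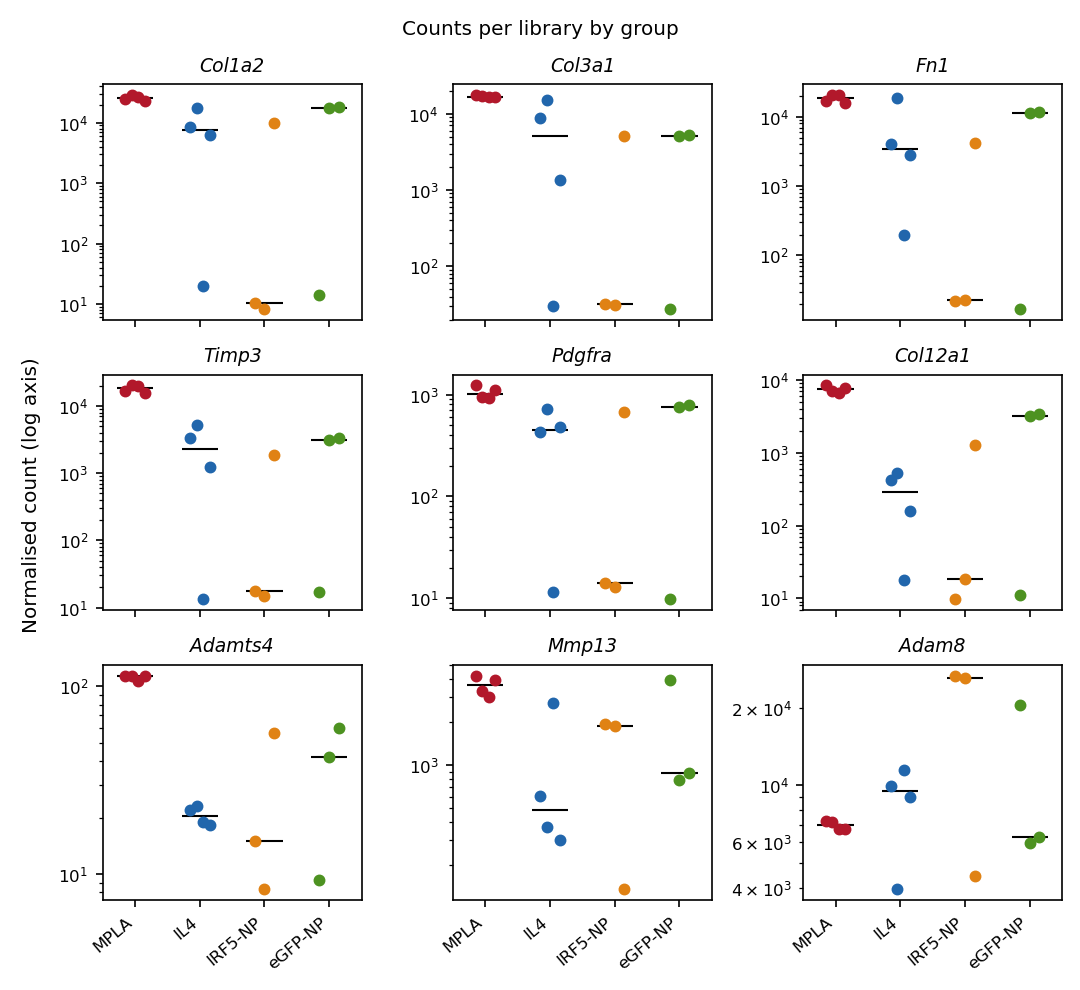
Normalised counts per library (log axis) of 9 genes by group, with a bar at the group median. For Col1a2, Timp3 and Col12a1 the 4 MPLA libraries lie above all others, and every group exposed to IL-4 has libraries near background; Adam8 is instead highest in IRF5-NP 1 and 2 (26697 and 26125).

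None of the 6 metalloproteinase genes had the same 4 lowest libraries as Col1a2, and 2 of them (Mmp10, Mmp1a) were below background throughout. Mmp13, a collagenase, was above background everywhere, with 4214, 3312, 2996 and 3945 in MPLA and 606, 371, 2711 and 301 in IL4. IRF5-NP libraries gave 1939, 1884 and 135 and eGFP-NP libraries 3959, 786 and 886. IL4 3 and eGFP-NP 1-2, in which Col1a2 was at background, were therefore the highest libraries of their groups for Mmp13. Mmp8, the collagenase known from neutrophils, was likewise highest in IL4 3 and eGFP-NP 1-2 within their groups. It gave 17.6, 4.32, 421 and 103 in IL4, 185, 219 and 71.7 in IRF5-NP, 407, 77.2 and 84.4 in eGFP-NP, and 191 to 225 in MPLA. Mmp19 was 329 to 402 in MPLA and 370, 596, 1402 and 305 in IL4, whereas IRF5-NP libraries had 198 to 211 and eGFP-NP libraries 220 to 285. Of 10 of the 50 genes above background in every library, it was the one whose NP libraries were all below all IL4 libraries. Of all 366 such genes on the panel, this held for 5.46% in IRF5-NP, 8.74% in eGFP-NP and 2.73% in both. Mmp9, a gelatinase, was low throughout, with 90.6 to 165 in MPLA, 25.9 to 66.6 in IL4 and 22.7 to 38.1 in eGFP-NP, and reached 120 in IRF5-NP 4.

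Among the ADAM and ADAMTS proteases, Adam8 is a membrane protease of myeloid cells. It gave 6783 to 7284 in MPLA, 9963, 3938, 11471 and 9019 in IL4, 26697, 26125 and 4434 in IRF5-NP, and 20481, 5986 and 6304 in eGFP-NP. Adamts4, which cuts the proteoglycan aggrecan, was 114, 114, 107 and 114 in MPLA and 22, 23, 19 and 18.3 in IL4. It was 15, 8.29 and 56.5 in IRF5-NP, where all 3 libraries were below background. In eGFP-NP it was 9.33, 42 and 60.1, with 2 of 3 libraries above background. The 4 IL4 libraries were alike here, 2 of them being below background. Adamts2, which removes the amino-terminal propeptide of procollagen, was 748 to 893 in MPLA and 344, 474, 23.8 and 78.3 in IL4. Adamts1 was higher in eGFP-NP 3 and 4 (1596 and 1697) than in MPLA (940 to 1073), and Adam19 was highest in IL4 4 (268). Adamts9 was 68.5 to 103 in MPLA and at most 50.2 elsewhere. Adamts12 was 48.7 to 66.3 in MPLA, 13.3 to 46.1 in IL4, 10.2 to 89 in eGFP-NP and below background in all IRF5-NP libraries.

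The growth factor genes split in their behaviour. Fgf7 and Fgf10 encode fibroblast factors that act on epithelium. Fgf7 was 5511 to 6257 in MPLA and 1367, 1377, 24.8 and 1021 in IL4, and Fgf10 was 431, 208, 208 and 421 in MPLA and 20.3, 46.8, 10.5 and 22.6 in IL4. For both, no library of the other groups reached the MPLA range. Pdgfb, a ligand for the PDGF receptors, was highest in the 4 libraries in which Col1a2 was lowest, with 190, 333, 311 and 186 in MPLA, 582, 131, 779 and 305 in IL4, 1028, 1050 and 320 in IRF5-NP and 892, 367 and 344 in eGFP-NP. Pdgfa, its relative, was 727 to 891 in MPLA and 354 to 2014 in IL4, and was highest in eGFP-NP 1-2 (3078). Vegfa, the main angiogenic factor, was 482 to 567 in MPLA and 284, 1074, 171 and 487 in IL4, and was lowest in IRF5-NP 1 and 2 (42.4 and 46.1). The chemokine gene Cxcl12 was 11464 to 14435 in MPLA and 17665, 4426, 6.67 and 644 in IL4, and IL4 1 was the highest of all libraries. Bmp6 was 59.2 to 75.2 in MPLA and 10.4 to 31 in IL4.

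All 7 receptor and fibroblast cell genes had the same 4 lowest libraries as Col1a2, as did 6 of the 10 collagen genes. Pdgfra, a receptor for PDGF ligands, gave 1229, 936, 917 and 1107 in MPLA and 429, 728, 11.4 and 478 in IL4. IRF5-NP libraries had 14.1, 12.9 and 676 and eGFP-NP libraries 9.78, 763 and 783. The related receptor gene Pdgfrb was in the same libraries at background, with 326 to 357 in MPLA and 168, 246, 22.9 and 151 in IL4. Cdh11, a cadherin of mesenchymal cells, was 6792 to 7375 in MPLA and 1524, 2563, 9.52 and 812 in IL4. Ddr2, a receptor that binds collagen, and Prrx1, a transcription factor of limb and craniofacial mesenchyme, were also higher in every MPLA library than in every IL4 library. Cav1, the coat protein of caveolae, overlapped between them (2014 to 2849 in MPLA, 171 to 2275 in IL4). Fgfr1, a receptor for fibroblast growth factors, was above background in every library, with 791 to 867 in MPLA and 409, 335, 131 and 324 in IL4.

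MPLA and IL4 standards were compared first. Some collagen, ADAMTS and growth factor genes were higher with MPLA: 10 of the 50 genes rose and 1 fell at an adjusted p under 0.05 (edgeR quasi-likelihood test, Benjamini-Hochberg over all 754 genes), or 22% against 26.4% of all genes called. By direction, 20% of the 50 rose against 12.2% of all genes, and 2% fell against 14.2%. The median log2 difference (MPLA minus IL4) was 1.09 for the 50 genes and -0.05 for all genes. In 25 of the 50 genes every MPLA library was above every IL4 library, which held for 22.1% of all genes, and 2 genes (Col14a1, Col15a1) showed the reverse (15.1% of all genes).

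By role, 3 of the 7 other collagens rose (Col12a1, Col4a1, Col4a2), as did 1 of the 3 fibrillar and related collagens (Col11a1), 2 of the 10 ADAM and ADAMTS genes (Adamts4, Adamts9), 2 of the 11 growth factor ligands (Bmp6, Fgf10), 1 of the 7 receptor and fibroblast cell genes (Fgfr1) and 1 of the 6 metalloproteinases (Mmp9). Col12a1 had the largest of these log2 differences, 4.74 ± 0.90 (SE, edgeR adjusted p = 0.0086), followed by Col11a1 at 3.85 ± 0.75 (adjusted p = 0.00918) and Fgf10 at 3.67 ± 0.51 (adjusted p = 0.00223). Adamts4 had the smallest adjusted p, 0.000138 by edgeR (log2 difference 2.46 ± 0.19). In IL4 only 2 of 4 libraries were above background for Adamts4, Fgf10 and Adamts9, and 1 of 4 for Bmp6, so the size of these differences rests partly on background counts. With counts below background set to it, the differences were 2.33, 3.46, 1.62 and 1.49, and all of them kept an edgeR adjusted p under 0.05. In all 10 genes that rose, every MPLA library was above every IL4 library. Col4a1 and Col4a2 differed by 2.33 ± 0.58 and 2.22 ± 0.68 (edgeR adjusted p = 0.0235 and 0.0445), but their calls were lost in 9 and 12 of 17 alternative settings. The changes of Adamts9 (2.09 ± 0.65), Bmp6 (1.88 ± 0.33), Fgfr1 (1.48 ± 0.35) and Mmp9 (1.39 ± 0.35) had edgeR adjusted p-values of 0.0465, 0.00643, 0.0187 and 0.0237. These calls were lost in 12, 2, 7 and 7 of 17 alternative settings, and the difference of Adamts9 ran from 1.62 to 3.1 over them. Col14a1 fell by 2.55 ± 0.62 on the log2 scale (edgeR adjusted p = 0.022), with all MPLA counts below background, and the difference was -1.29 with the floor at background. Its call was lost in 6 of 17 alternative settings.

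Several genes with high counts missed the threshold. The log2 difference was 1.70 ± 1.21 for Col1a2 (edgeR adjusted p = 0.322), 1.41 ± 1.23 for Col3a1 (0.423), 1.55 ± 1.00 for Fn1 (0.285), 2.92 ± 1.19 for Timp3 (0.104) and 1.35 ± 0.86 for Pdgfra (0.276). Fgf7 (2.63 ± 0.91, edgeR adjusted p = 0.0644), Loxl2 (2.54 ± 0.92, 0.074) and Mmp13 (1.91 ± 0.68, 0.069) lay just outside it. Without IL4 3 the count of called genes was 22 (20 higher, 2 lower; 26.8% of all genes) and included Col1a2, Timp3 and Pdgfra, and without IL4 2 it was 17 (12 higher, 5 lower; 39.1% of all genes) and included Fn1 at 2.95 (edgeR adjusted p = 0.0346). With the nearly identical libraries summed, 2 were called (Adamts4 and Fgf10).

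**Figure D4:**
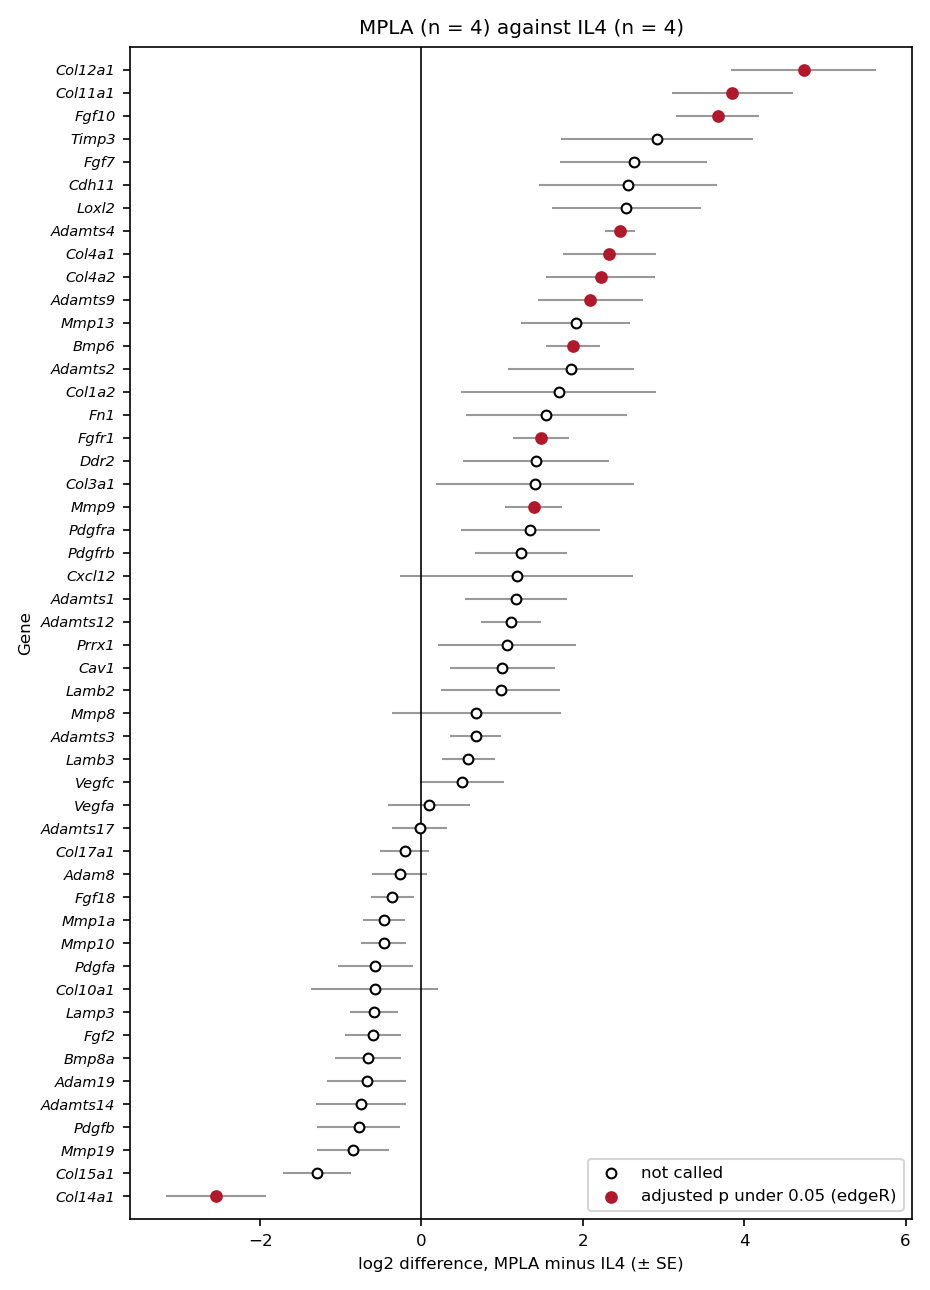
log2 difference, MPLA minus IL4 (x axis, edgeR estimate ± SE, 4 against 4 libraries), for each of the 50 genes in order of size. Filled points are the 11 genes with an adjusted p under 0.05, 10 above 0 and Col14a1 below; Col1a2, Fn1 and Timp3 lie above 0 with SEs of 1.21, 1.00 and 1.19.

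IRF5 NPs and control NPs were each set against IL4 alone. No gene of the 50 was called in either comparison by edgeR, as was the case for all genes (0% called). At an unadjusted p under 0.05, edgeR gave 1 of the 50 for IRF5-NP (Mmp19, 7.03% of all genes) and 2 for eGFP-NP (Mmp19 and Mmp1a, 11.1% of all genes), Mmp1a being below background in every library. DESeq2 called 0 for IRF5-NP (2.61% of all genes) and 1 for eGFP-NP (Col11a1, higher; 9.15% of all genes). The log2 difference of Mmp19 was -1.82 ± 0.59 with IRF5-NP (edgeR adjusted p = 0.522) and -1.58 ± 0.58 with eGFP-NP (edgeR adjusted p = 0.368), and the 2 comparisons share the IL4 libraries. For Col1a2 it was -1.35 ± 2.38 and 0.41 ± 1.92, and -9.86 with IRF5-NP when IRF5-NP 4 was left out (edgeR adjusted p = 0.248). With SEs of this size, differences of several log2 units in the collagen genes could not be resolved.

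The cargo itself was compared between IRF5-NP and eGFP-NP. None of the 50 genes was called (0% of all genes), and none had an unadjusted p under 0.05 by edgeR (5.57% of all genes); DESeq2 also called 0 (0.822% of all genes). The log2 difference (IRF5-NP minus eGFP-NP) was -1.59 ± 2.93 for Col1a2, -0.22 ± 0.26 for Mmp19 and -3.85 ± 1.72 for Col11a1. Without IRF5-NP 4 it was -10.33 for Col1a2, and with the number as a block -0.80 for Col1a2 and -1.45 for Col11a1, all of them uncalled. Same-numbered libraries deviated together (correlation of their deviations from the group means 0.818 to 0.823 for numbers 1, 2 and 4). With nearly identical libraries in both groups, these correlations rest largely on the same contrast and cannot show that a number pairs samples. With the number as a block the count stayed at 0. Between IRF5-NP 4 and eGFP-NP 4, 32 genes were above background in both, and 28 of them were lower in IRF5-NP 4 (median log2 difference -0.50). With scaling to housekeeping genes 15 of the 32 were lower and the median was 0.13, so that the direction of this single pair of libraries depended on the scaling.

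IRF5-NP were then compared with the MPLA standard. Of the 50 genes, edgeR called 3 higher and 3 lower (12% called, against 24.4% of all genes, of which 11.5% were higher and 12.9% lower). Among those called higher, 2 (Col15a1 and Lamp3) were below background in all libraries of both groups and have no measured fold change. With the floor at background, the fit compares only the libraries' thresholds for both and cannot speak for these genes. The median log2 difference (IRF5-NP minus MPLA) was -1.25, against 0.07 over all genes, and in 28 genes every IRF5-NP library was below every MPLA library, which held for 30.5% of all genes. Col11a1 fell by 4.50 ± 0.90 on the log2 scale (edgeR adjusted p = 0.0179) and Mmp19 by 0.73 ± 0.16 (edgeR adjusted p = 0.0208), although the call of Mmp19 was lost in 10 of 16 alternatives and its difference was -0.35 with genes near background left out of the fit. Adamts12 was called lower (edgeR adjusted p = 0.0454), but it was below background in all IRF5-NP libraries, the difference was -0.59 with the floor at background (edgeR adjusted p = 0.283), and the call was lost in 13 of 16 alternatives. Pdgfb rose by 1.70 ± 0.40 (edgeR adjusted p = 0.028), although IRF5-NP 4 (320) lay within the MPLA range, and its call was also lost in 10 of 16 alternatives. The difference was -4.54 ± 1.89 for Timp3 (edgeR adjusted p = 0.114) and 1.47 ± 0.52 for Adam8 (0.0758), and both were called by DESeq2 and without IRF5-NP 4, where Timp3 differed by -10.12. Without IRF5-NP 4, 45 of the 50 were called (8 higher, 37 lower; 75.1% of all genes), from 2 nearly identical IRF5-NP libraries, and with the nearly identical libraries summed or the number as a block 0 were.

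Control NPs were set against the same MPLA libraries. Of the 50 genes, edgeR called 2 higher and 4 lower (12% called, against 19.6% of all genes, of which 7.16% were higher and 12.5% lower), and the median log2 difference was -0.45 against 0.06 over all genes. In 20 genes every eGFP-NP library was below every MPLA library (23.6% of all genes). Fgf10 fell by 3.08 ± 0.73 on the log2 scale, Mmp9 by 2.11 ± 0.32 and Mmp19 by 0.61 ± 0.17 (edgeR adjusted p = 0.0282, 0.00538 and 0.0427), with Fgf10 and Mmp9 above background in 2 of 3 eGFP-NP libraries. The calls of Fgf10 and Mmp19 were lost in 9 and 11 of 17 alternatives. Bmp6 was called lower (edgeR adjusted p = 0.00679) and was below background in all eGFP-NP libraries; with the floor at background the difference was -1.57. The genes called higher were Col15a1 and Fgf2 (edgeR adjusted p = 0.0277 and 0.0118). Col15a1 was below background in all libraries of both groups, and Fgf2 was above it in 1 eGFP-NP library only, so neither has a measured fold change. With the floor at background the differences were 0.52 and 0.65. The floored fit compares only the libraries' thresholds for Col15a1, and mostly so for Fgf2, and cannot speak for these genes. Their calls were lost in 10 and 1 of 16 alternatives. For Timp3 the difference was -3.11 ± 1.35 (edgeR adjusted p = 0.156), and it was called by DESeq2 and without eGFP-NP 1-2 (-2.47). Without eGFP-NP 1-2, 35 of the 50 were called (14 higher, 21 lower; 56.8% of all genes), from 2 nearly identical eGFP-NP libraries, and with the nearly identical libraries summed 0 were.

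A ratio of 2 counts within a library does not depend on how libraries are scaled. Each gene was therefore set against Col1a2 in the 10 libraries in which Col1a2 was above background: the 4 MPLA libraries and IL4 1, 2 and 4, IRF5-NP 4, and eGFP-NP 3 and 4. Of the 50 genes, 29 besides Col1a2 were above background in all 10. Relative to Col1a2, 4 of the 29 were higher in every MPLA library than in every other library (Timp3, Cdh11, Col12a1, Mmp13), 5 were lower (Adam19, Adamts1, Lamb2, Pdgfrb, Vegfa) and 20 overlapped. Of all 424 genes that were above background in all 10, 1.89% were higher in every MPLA library and 29.7% lower. The log2 ratio of Timp3 to Col1a2 was -0.57 to -0.44 in MPLA and -2.47 to -1.38 elsewhere. That of Col12a1 was -2.04 to -1.54 in MPLA, -5.29 to -4.34 in the 3 IL4 libraries, -2.95 in IRF5-NP 4 and -2.42 and -2.39 in eGFP-NP 3 and 4. Cdh11 had -1.95 to -1.74 in MPLA and -2.96 to -2.50 elsewhere, and Mmp13 -3.18 to -2.55 and -6.19 to -3.83. Col3a1 and Fn1 overlapped, with IL4 1 and 2 above or beside MPLA for Col3a1. With Pdgfra as the reference the same 4 genes, together with Fgf7 and Loxl2, were higher in every MPLA library, and Adam19 was lower in every one (4.25% and 10.1% of the 424 genes). These orders are descriptions; they show that the genes differed unequally between MPLA and the other libraries.

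**Figure D5:**
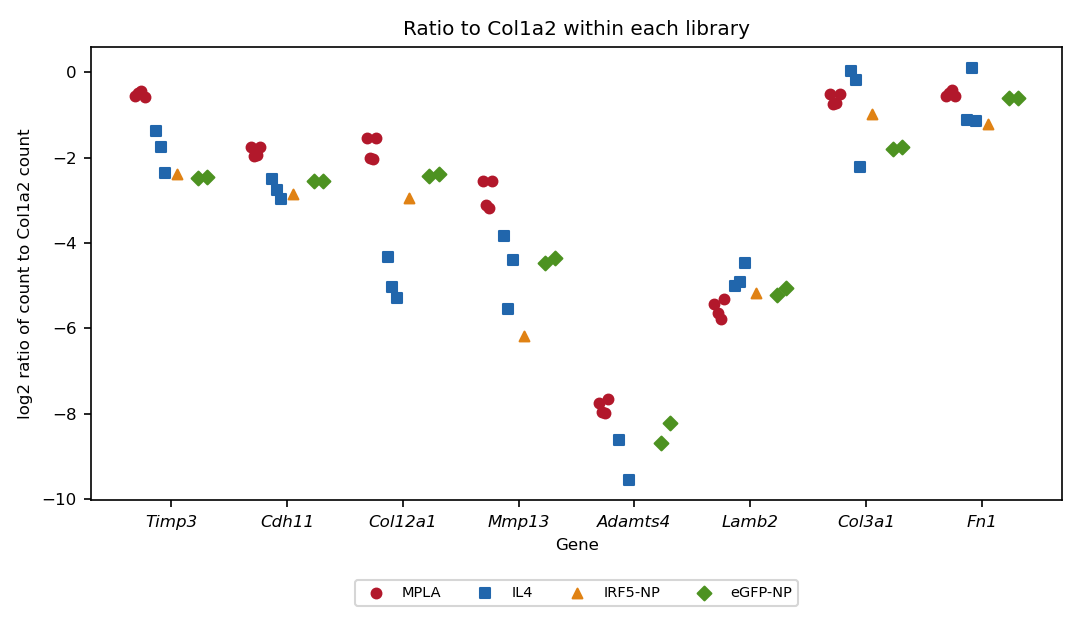
log2 ratio of each gene's count to that of Col1a2 in the same library (y axis) for 8 genes, by group, in libraries where both were above background. For Timp3, Cdh11, Col12a1 and Mmp13 the MPLA points lie above all others, for Lamb2 below, and for Col3a1 and Fn1 they overlap; Adamts4 has points in 8 of the 10 libraries, the others being below background.

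Genes whose products partner with the matrix behaved variously. A list of 62 matrix and adhesion partners had 14 genes on the panel, of which 2 rose and 1 fell in MPLA against IL4 (edgeR), while 26.4% of all genes were called. The integrin subunit genes Itga5 and Itgb1 rose by 0.73 ± 0.23 and 0.79 ± 0.23 (edgeR adjusted p = 0.0465 and 0.0364). Cd36, a scavenger receptor that binds thrombospondin, fell by 2.82 ± 0.69 on the log2 scale (edgeR adjusted p = 0.022), with 1029 to 1260 in MPLA and 3389, 3968, 23121 and 3206 in IL4. It was 37000 and 36848 in IRF5-NP 1 and 2 and 34385 in eGFP-NP 1-2, against 1482 in IRF5-NP 4 and 3826 and 4248 in eGFP-NP 3 and 4, and was thus high in the libraries in which Col1a2 was at background. The partners Ctgf, Cyr61, Hspg2 and Vcam1 had the opposite order, being below background in just those 4 libraries; Ctgf, a matrix-associated growth regulator, gave 13.3 in IL4 3 and 1306 to 4848 in the other IL4 libraries. Cd36 rose in both NP groups against MPLA, and the protease gene Plau in eGFP-NP against MPLA, where 24.4% (IRF5-NP) and 19.6% (eGFP-NP) of all genes were called. None of the 14 was called in the other 3 comparisons by edgeR or DESeq2, and none had an unadjusted p under 0.05 there by edgeR (DESeq2 gave Cd36 no p in these or in MPLA against IL4). Of 33 genes of the TGF-β pathway, which drives matrix production, 9 were on the panel and 0 were called in MPLA against IL4 by edgeR (26.4% of all genes), with 2 at an unadjusted p under 0.05 (Skil, Tgfbr3) and 2 called by DESeq2 (Tgfb1, Tgfbr3). Id1 rose and Smad1 fell in eGFP-NP against MPLA, and edgeR made no other call for this list.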

How the data were processed

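RNA of 15 BMDM samples was measured on the nCounter Myeloid Innate Immunity panel, which tallies barcoded probes hybridised to their target RNA with no amplification step. The authors deposited 1 table of raw counts for 768 probes (754 genes, 6 positive and 8 negative controls), with no normalization applied; their methods name scaling to housekeeping genes, log2 values and t-tests with Benjamini-Yekutieli rates. All 50 gene names matched a current symbol of GRCm38.p6. The labels gave each sample's group and number. The genes and lists were chosen with earlier results of these data known.

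Counts were tested with edgeR 4.0.16 (R 4.3.3, TMM, quasi-likelihood test) on the 2 groups compared, with no filter, and p-values were adjusted over all 754 genes at a threshold of 0.05. Printed levels are CPM scaled by TMM over 14 libraries. Per-library values are given for the marker genes, for every gene called and for examples of each role. Chi-square tests of replicates were limited to genes whose counts summed to 40 or more (p = 0.0817 for eGFP-NP 1 and 2; 0.111 from 10 counts and 0.0162 from 100). Total counts of 266169 to 1784833 set the precision, and counts near background carry little of it. The edgeR script was checked on simulated counts of 754 genes. Its power at the spread seen between these libraries was not tested. Alternatives were DESeq2 size factors, scaling to 20 housekeeping genes, DESeq2 1.42.0, the methods' t-test with Benjamini-Hochberg rates, a filter and a floor at background, all groups in 1 fit, summed or separate near-identical libraries, the replicate number as a block, and each library left out. Same-numbered IRF5-NP and eGFP-NP libraries correlated at 0.818 to 0.823 in their deviations. The labels do not say what a number marks, and with nearly identical libraries in both groups these values cannot show that it pairs samples. No batch was tested, since no lane or cartridge is given in the sources used here.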

Additional observations from a re-analysis of the deposited data

Results flagged for a closer look

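Within a group of 4, a library was singled out when its gap to the nearest other library was a large share of the group's whole range, both on the scale of log2(normalised count + 1); chance gives this in about 1 in 20 groups. In IL4, 6 of 43 genes met this (14%, against 8.56% of 631 genes on the panel), 5 of them through IL4 3 (11.6%, against 3.33%). IL4 3 was the lowest library by a gap of 0.966 of the range for Prrx1, 0.925 for Fgf7, 0.870 for Pdgfra, 0.850 for Col1a2 and 0.834 for Ddr2, and IL4 1 was the highest for Col15a1 (0.848), a gene above background in that library only. In MPLA, 2 of 41 genes met it (4.88%, against 4.73% of 592), with MPLA 3 the lowest for Lamb2 (0.975) and Adamts4 (0.904); there the whole range, unlogged, was 493 to 578 and 107 to 114 normalised counts. In IL4 3 the summed macrophage markers were 81332, against 48147 to 50582 in the other IL4 libraries; their part in these gaps was not tested.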

How the results depend on the processing

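The number of the 50 genes called depended on the tool and on single libraries, and the share of all genes called, given in brackets, moved too. The methods' t-test was scored here with Benjamini-Hochberg rates. With the Benjamini-Yekutieli rates that the methods name, it called 1 of the 50 in MPLA against IL4 and 0 in each NP group against MPLA. In MPLA against IL4 (11 by edgeR), DESeq2 called 19 (39.9%), the methods' t-test 5 (15.9%), all groups in 1 fit 6 (16.3%), summed near-identical libraries 2 (2.65%) and the replicate block 7 (12.6%); leaving out 1 library gave 5 to 22 (5 without MPLA 1, 2 or 4, with 9.81% to 13% of all genes; 17 without IL4 2 (12 higher, 5 lower), 39.1%; 22 without IL4 3, 26.8%). In IRF5-NP against MPLA (6), DESeq2 called 29 (51.6%), a filter on background 2 (22%), summed libraries 0 and the replicate block 0 (0% each); leaving out 1 library gave 1 to 45 (1 without MPLA 4 or IRF5-NP 2, 2 without MPLA 1 or IRF5-NP 1, 3 without MPLA 2 or 3, these with 7.29% to 11.9% of all genes; 45 without IRF5-NP 4, 75.1%). In eGFP-NP against MPLA (6), DESeq2 called 14 (31.5%), a filter 3 (24.1%), a floor at background 20 (48.8%), all groups in 1 fit 3 (6.63%), summed libraries 0 (0%) and the replicate block 3 (10.7%); leaving out 1 library gave 3 to 35 (3 without eGFP-NP 4 or any 1 MPLA library, with 9.81% to 13.3% of all genes; 35 without eGFP-NP 1-2, 56.8%). In eGFP-NP against IL4 (0), DESeq2 called 1 (9.15%). The cause of these shifts was not tested. The replicate block changed no call in the comparisons among IL-4-exposed groups. In MPLA against IL4 same-numbered libraries correlated at -0.0506 to 0.146 in their deviations, and in the NP groups against MPLA at -0.139 to 0.126. These few values involve nearly identical libraries and cannot decide whether the numbers pair samples there. The calls lost under the block were therefore not interpreted. Adamts4 and Fgf10 kept their calls in MPLA against IL4 under all 17 alternatives, the t-test being scored with Benjamini-Hochberg rates. With Benjamini-Yekutieli rates the t-test called 1 of the 50, so at least 1 of these 2 genes lost its call there. The log2 differences were 2.18 to 2.51 and 3.32 to 4.13. These sizes rest partly on background counts, as only 2 of 4 IL4 libraries were above background for each.

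Among single genes, the uncalled Col1a2 difference in eGFP-NP against IL4 (0.41) turned to -0.65 with the methods' t-test, -0.00 with eGFP-NP 1 and 2 separate, -0.02 with pairs summed, -3.61 with the block and -0.04 to 1.24 on leaving out 1 library (-0.04 without eGFP-NP 4), and the Mmp19 difference in IRF5-NP against eGFP-NP (-0.22) to 0.06 with housekeeping scaling and 0.07 with the t-test. Over all alternatives the Col1a2 difference ran from -9.86 to -0.60 in IRF5-NP against IL4 and from -10.33 to -0.61 in IRF5-NP against eGFP-NP, that of Col11a1 in the latter from -5.52 to -1.45, and that of Timp3 against MPLA from -10.12 to -3.96 (IRF5-NP) and -6.24 to -2.47 (eGFP-NP). Housekeeping scaling moved the median of all genes by -0.26 in MPLA against IL4, 0.11 in IRF5-NP against IL4, -0.20 in eGFP-NP against IL4, 0.29 in IRF5-NP against eGFP-NP and 0.13 in IRF5-NP against MPLA. Over all alternatives the median of the 50 genes ran from 0.78 to 1.54 in MPLA against IL4, -2.47 to -0.80 in IRF5-NP against MPLA, -1.63 to -0.14 in eGFP-NP against MPLA and -1.80 to -0.06 in IRF5-NP against IL4, while it crossed 0 in eGFP-NP against IL4 (-0.28 to 0.80) and in IRF5-NP against eGFP-NP (-2.22 to 0.04). Genes near background (19.7 to 34.9 counts in a single sample) in both groups compared, as Col15a1, Lamp3 and Fgf2 were, have no measured fold change. Where libraries of 1 group were near background (Adamts4, Adamts12, Bmp6, Fgf10, Col11a1), the size of the difference depends on the background.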
